A study of Rattus norvegicus with 2 samples.

Results

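The miR-322, miR-503, miR-351, miR-542 and miR-450 cluster is a group of miRNA hairpins that lie next to each other on the X chromosome. Its members were chosen by name alone, as every row named for miR-322, miR-351, miR-503, miR-542, miR-450a or miR-450b, on either arm of the hairpin. The rule found 10 of the 635 miRNAs in the count table: mmu-miR-322-5p, mmu-miR-322-3p, mmu-miR-503-5p, mmu-miR-503-3p, mmu-miR-351-5p, mmu-miR-351-3p, mmu-miR-542-5p, mmu-miR-542-3p, mmu-miR-450b-3p and mmu-miR-450a-1-3p. The prefix mmu marks mouse names, although the cells came from rats.

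Exosomes are small vesicles that cells release, and these came from the culture medium of cardiomyocytes of Wistar rats aged 1 to 2 days. NC-Exo came from cells without angiotensin II (Ang II), a peptide hormone used to bring about hypertrophy, and HC-Exo from cells given Ang II at 1 μmol/L. Both cultures were first starved of serum and then kept with or without Ang II for 48 h. Both cultures shared 0.1 mM 5′-bromo-2′-deoxyuridine in the medium, a thymidine analogue that holds back dividing cells, and both exosome preparations used a total exosome isolation reagent. Small RNA of each was sequenced as 1 library, so the comparison of HC-Exo with NC-Exo had no replicate check. The cardiomyocytes were enriched from whole hearts by differential adhesion, so other heart cells could remain in the cultures, and the sources used here do not give the number of rats or cultures behind a library. Summed over the rows, the NC-Exo library held 102608 miRNA reads and the HC-Exo library 133155. Of the 135 rows with 100 or more reads, 8 had the same counts as another row in both libraries, such as miR-486a-5p and miR-486b-5p, so some reads may be in these sums more than once. None of the 8 was a cluster member. A level is given as reads per 1000000 of this sum in its library (RPM), and 1 read stood for 9.75 RPM in NC-Exo and 7.51 RPM in HC-Exo.

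A miRNA hairpin is cut into a 5p and a 3p arm, and usually one of them is loaded into Argonaute while the other is degraded. The loaded arm finds its targets mainly through its seed, a short run of bases near its 5′ end, so that miRNAs with like seeds can share targets. The miR-322 and miR-503 pair, called miR-424 and miR-503 in human, is known for holding back the cell cycle through cyclins and related kinases, for muscle cell differentiation, and for expression in early cardiac progenitor cells.

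All 10 members were matched to rat miRNAs of RefSeq, build GRCr8, 9 by name and miR-450a-1-3p as rno-miR-450a-3p. The mature sequences of the 10 members are shown so that their seeds can be compared. Capitals mark the seed, bases 2 to 8 counted from the 5′ end.
rno-miR-322-5p: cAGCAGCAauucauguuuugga
rno-miR-322-3p: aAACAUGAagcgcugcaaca
rno-miR-503-5p: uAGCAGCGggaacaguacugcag
rno-miR-503-3p: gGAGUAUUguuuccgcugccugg
rno-miR-351-5p: uCCCUGAGgagcccuuugagccuga
rno-miR-351-3p: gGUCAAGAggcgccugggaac
rno-miR-542-5p: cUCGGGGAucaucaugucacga
rno-miR-542-3p: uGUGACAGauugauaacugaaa
rno-miR-450b-3p: aUUGGGGAcgcuucgcauuca
rno-miR-450a-3p: uAUUGGGAacauuuugcauaa
Sequences of miRNAs from elsewhere in the genome follow, because their seeds are like those of miR-322-5p, miR-503-5p and miR-351-5p.
rno-miR-16-5p: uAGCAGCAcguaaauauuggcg
rno-miR-15b-5p: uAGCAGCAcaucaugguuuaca
rno-miR-497-5p: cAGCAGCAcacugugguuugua
rno-miR-195-5p: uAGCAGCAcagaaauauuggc
rno-miR-125a-5p: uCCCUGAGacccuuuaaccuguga
rno-miR-125b-5p: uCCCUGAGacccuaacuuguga
The seed of miR-322-5p was shared in full with miR-16-5p, miR-15b-5p, miR-497a-5p and miR-195a-5p among the 315 rows matched to RefSeq. Positions are counted from 1 at the 5′ end, and miR-503-5p differed from miR-322-5p within its first 8 bases by C1U and A8G, so that bases 2 to 7 were the same. The seed of miR-351-5p was shared with miR-125a-5p and miR-125b-5p, and the first 8 bases were identical in all 3, the first difference of miR-351-5p from either being G9A. The seeds of the other 7 members, those of miR-503-3p, miR-322-3p and miR-450b-3p included, were found in no other matched row by bases 2 to 7. The members thus had 9 different 6-base seeds over 10 arms, and only miR-322-5p and miR-503-5p had one in common. These are rat sequences, and the counted rows carry mouse names. Whether the rat and mouse arms differ in sequence was not tested.

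The 6 hairpins lay on the minus strand of chrX:137720933-137726241 (GRCr8), a stretch of 5309 nt. This build is that of RefSeq and not that of the authors, whose processing notes name the mouse builds mm9 and GRCm38. From the 5′ end of the strand the order was Mir322, Mir503, Mir351, Mir542, Mir450b-1 and Mir450a1. Mir503 began 315 nt, Mir351 1045 nt and Mir542 3987 nt after the start of Mir322, and Mir450b-1 and Mir450a1 began 5095 and 5218 nt after it. Summed over its arms, the Mir351 hairpin had the most reads, 483 from NC-Exo and 763 from HC-Exo, followed by Mir322 with 287 and 418, Mir503 with 215 and 300, and Mir542 with 100 and 159. The 3′ end of the cluster had the lowest sums in HC-Exo, 144 reads for Mir450b-1 and 8 for Mir450a1, each from a 3p arm alone, as far as the row names tell. RefSeq lists 12 mature arms for these hairpins. For miR-450a-5p and miR-450b-5p, which are identical over their first 20 bases, the counts held no row of that name.

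Together the 10 miRNAs took 1.13% of the NC-Exo reads (1162 reads, 95% Clopper-Pearson interval 1.07 to 1.2%) and 1.35% of the HC-Exo reads (1792 reads, 1.28 to 1.41%). The sum had an HC-Exo/NC-Exo log2 ratio of 0.25 (95% exact interval 0.14 to 0.36), and without miR-351-5p it was 0.17 (0.04 to 0.31). With upper-quartile scaling the ratio of the sum was 0.13 (0.02 to 0.23), and 0.05 (-0.09 to 0.19) without miR-351-5p. No p-value is given for a sum over chosen members. All intervals cover counting error only and hold no spread between cultures. PCR copies of one molecule are counted as separate reads, so the intervals may be too narrow even for counting error.

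The leading member in both libraries was miR-351-5p, a rodent miRNA with the seed of the miR-125 family. It had 420 NC-Exo reads and 707 HC-Exo reads, levels of 4093 RPM (3712 to 4503) and 5310 RPM (4926 to 5715). It ranked 38th of all miRNAs in each library and made up 36.1% of the cluster reads of NC-Exo and 39.5% of those of HC-Exo. Next came miR-503-3p, with 207 and 282 reads, or 2017 RPM (1752 to 2311) and 2118 RPM (1878 to 2380). It stood below miR-351-5p by a factor of 2.03 (1.71 to 2.41) in NC-Exo and 2.51 (2.18 to 2.89) in HC-Exo. The arms of miR-322 followed, with 145 and 222 reads for miR-322-5p and 142 and 196 for miR-322-3p, and these neighbours in the order could not be told apart by counting error in either library.

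The middle of the order was held by miR-450b-3p with 76 and 144 reads, miR-542-3p with 68 and 97, and miR-351-3p with 63 and 56. In NC-Exo neither of the neighbouring pairs among these 3 differed beyond counting error. In HC-Exo, miR-450b-3p stood above miR-542-3p by a factor of 1.48 (1.14 to 1.94), and miR-351-3p stood below miR-542-5p in the order, from which it could not be told apart. The arm miR-542-5p had 32 and 62 reads. The lowest levels were those of miR-503-5p, with 8 and 18 reads, and miR-450a-1-3p, with 1 and 8 reads. In HC-Exo these last 2 could not be told apart either. Counted by arm, the members thus spanned from 9.75 RPM, which is 1 read, to 4093 RPM in NC-Exo. In HC-Exo they spanned from 60.1 to 5310 RPM. Levels of different miRNAs also depend on how well each is ligated and amplified, which was not tested. Rat reads were counted under mouse names, and the count of an arm whose rat and mouse sequences differ may be too low, which was not tested either.

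**Figure D1:**
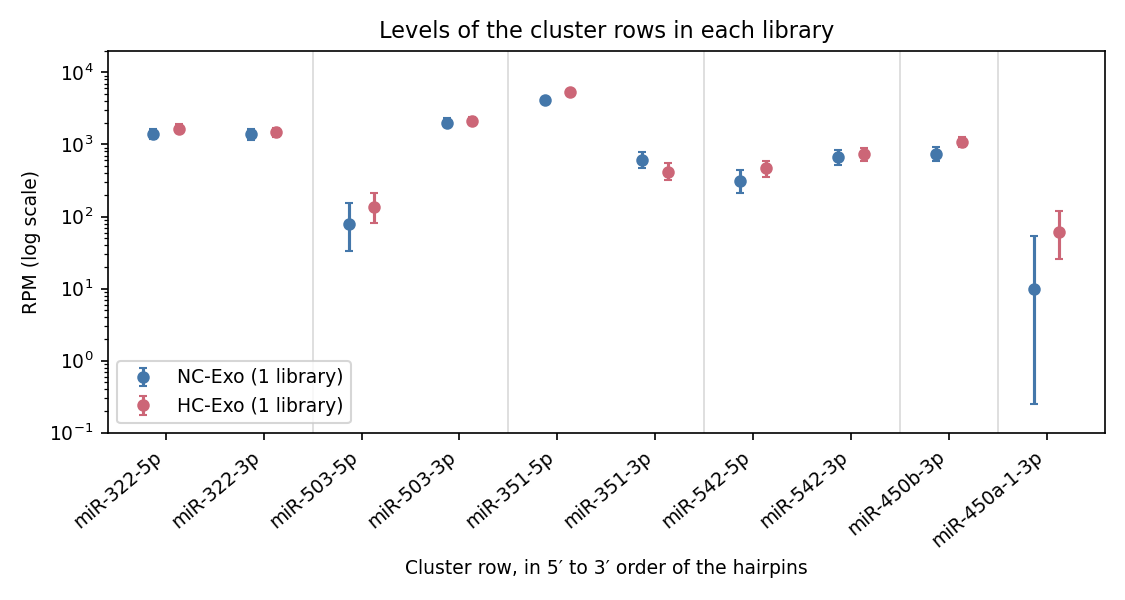
Levels of the 10 cluster rows in RPM on a log axis, in the 5′ to 3′ order of their hairpins, for the NC-Exo and HC-Exo libraries (1 each). Bars are 95% Clopper-Pearson intervals of counting error, and the levels run from miR-450a-1-3p, with 1 and 8 reads, to miR-351-5p, with 420 and 707.

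The question of the comparison is how the exosomal miRNAs of hypertrophic cardiomyocytes differ from those of normal ones. The reads of 340 miRNAs that reached 10 over both libraries were tested by the two-sided exact binomial test, with Benjamini-Hochberg adjustment over all 340. The test compares the 2 libraries, not the conditions, and counts no spread between cultures. Of the 10 members 9 were tested, and miR-450a-1-3p, with 9 reads in all, was not.

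Levels of miR-351-5p were higher in HC-Exo by a ratio of 1.3 (1.15 to 1.47). On the log2 scale this was 0.38 (0.20 to 0.55), with adjusted p = 3.15e-04 by the exact test. Levels of miR-450b-3p rose from 741 RPM (584 to 927) to 1081 RPM (912 to 1273). Its log2 ratio was 0.55 (0.14 to 0.97, exact test adjusted p = 0.0377). The call of miR-450b-3p was lost under 4 of 5 other scalings of the libraries, with log2 ratios of 0.42 to 0.52 and exact test adjusted p-values of 0.0527 to 0.133, while miR-351-5p kept its call under all 5. Once a spread between cultures was assumed, 0 of all 340 miRNAs were called, these members included. With a coefficient of variation of 0.1, the exact test of edgeR gave adjusted p = 0.407 for miR-351-5p and 0.34 for miR-450b-3p.

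The other 7 tested members were not called. The arms miR-322-5p and miR-322-3p had log2 ratios of 0.24 (-0.07 to 0.55) and 0.09 (-0.23 to 0.41). That of miR-503-3p was 0.07 (-0.19 to 0.34) and that of miR-503-5p 0.79 (-0.48 to 2.20), wide because it rests on 26 reads. For miR-542-3p, an arm known to act on the apoptosis inhibitor survivin, it was 0.14 (-0.33 to 0.61), and for miR-542-5p 0.58 (-0.06 to 1.24). The arm miR-351-3p was the only tested member with a lower level in HC-Exo, 421 RPM (318 to 546) against 614 RPM (472 to 785) in NC-Exo. Its log2 ratio was -0.55, a ratio of 0.685 (0.469 to 0.998), with an unadjusted p = 0.0418 by the exact test and p = 0.134 after adjustment. The ratio of miR-450a-1-3p, resting on 1 NC-Exo read and 8 HC-Exo reads, was 6.16 with an interval of 0.826 to 274, so that no difference was detectable at this depth.

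**Figure D2:**
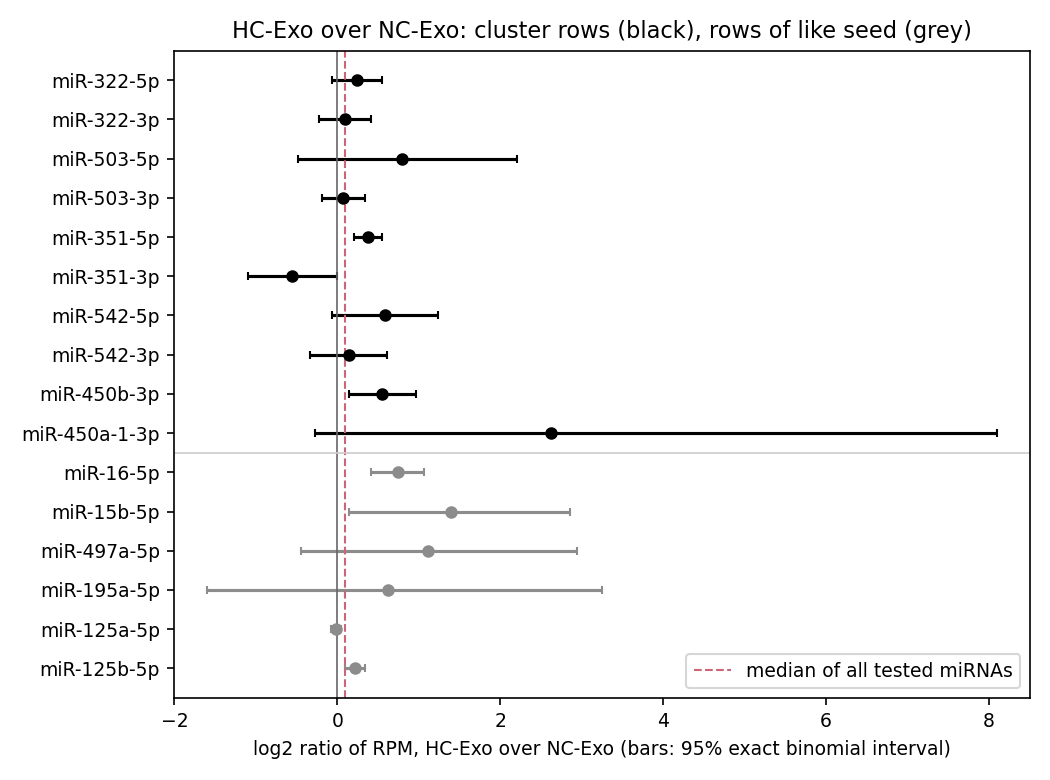
HC-Exo/NC-Exo log2 ratios of RPM for the 10 cluster rows (black) and 6 rows of like seed (grey), with 95% exact intervals of counting error and the median of all 340 tested miRNAs as a dashed line at 0.10. Of the cluster rows, only the intervals of miR-351-5p (0.20 to 0.55), miR-450b-3p (0.14 to 0.97) and, below 0, miR-351-3p leave out 0.

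Read against all tested miRNAs, the number of calls in the cluster was near the background. Of the 9 tested members 2 had an adjusted p under 0.05 in the exact binomial test, or 22.2%, beside 76 of 340 in all (22.4%). Both were higher in HC-Exo, and 47 of the 340 were (13.8%). With totals as scaling 47 miRNAs were higher and 29 lower, while the split was 35 to 35 with TMM, 24 to 38 with upper-quartile scaling and 29 to 36 with totals that leave out the 10 most abundant miRNAs. A call that also needed a log2 ratio of 1 or more in size was reached by 0 members and by 16 of the 340 (4.71%). The size alone was reached by 0 of the 9 members and 53 of the 340 (15.6%). By direction without a test, 8 of the 9 members had a log2 ratio above 0, beside 191 of the 340 (56.2%). With upper-quartile scaling and with totals without the 10 most abundant miRNAs 6 of the 9 did, beside 164 and 171 of the 340, since the small ratios of miR-322-3p and miR-503-3p then fell below 0.

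Most members were more abundant than most tested miRNAs, and calls depend on depth, so the same was counted over the 135 with 100 or more reads, a choice made after the data were seen. Of these 43.0% (58) had an adjusted p under 0.05 in the exact binomial test and 28.1% (38) were also higher in HC-Exo, beside 2 of 7 members (28.6%). Of the 135, 81 had a log2 ratio above 0 (60.0%), beside 6 of 7 members. The median log2 ratio was 0.24 over the 9 tested members and 0.10 over all 340, and 0.14 and 0.10 among those with 100 or more reads. Upper-quartile scaling lowered every log2 ratio by the same 0.12 and TMM by 0.07, so the members' distance to the median of all miRNAs stayed as it was.

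**Figure D3:**
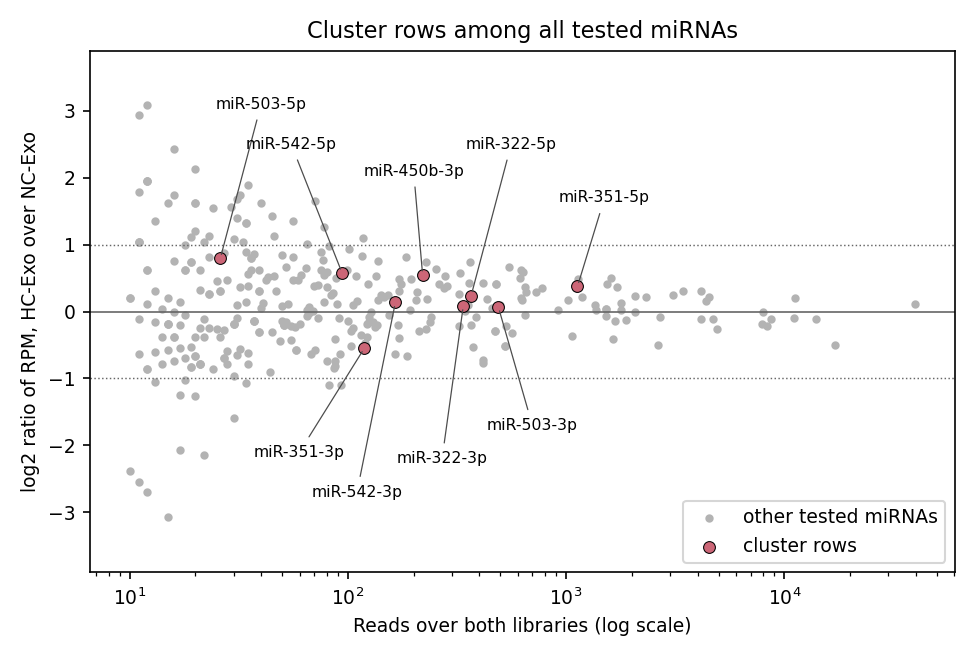
Reads over both libraries (log axis) against the HC-Exo/NC-Exo log2 ratio of RPM for the 340 tested miRNAs, with the 9 tested cluster rows in red. Dotted lines mark a log2 ratio of 1 in size, which 53 miRNAs reached, 0 of them cluster rows.

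Ratios were also compared along the cluster, by hairpin and in 4 pairs of members. Summed by hairpin, the log2 ratio was 0.17 (-0.05 to 0.39) for Mir322, 0.10 (-0.15 to 0.36) for Mir503, 0.28 (0.12 to 0.45) for Mir351 and 0.29 (-0.08 to 0.67) for Mir542. The difference in log2 ratio between miR-351-5p and miR-503-3p was 0.31 (-0.02 to 0.63), and between miR-351-5p and miR-322-5p 0.14 (-0.22 to 0.49). Between miR-450b-3p and miR-542-3p it was 0.41 (-0.22 to 1.04), and between miR-450b-3p and miR-351-5p 0.17 (-0.28 to 0.63). None of these 4 intervals leaves out 0, so that no difference was detectable at this depth. The miRNAs whose ratio lay closest to that of miR-351-5p, out of 32 with a mean level within 2-fold of its own, were miR-99b-5p and miR-342-3p, both at 0.37, and miR-133a-3p at 0.36. This likeness is over 2 libraries only, a single ratio for each miRNA.

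The split of counted reads between the arms differed from hairpin to hairpin. These shares carry the same limit as the levels, since an undercount of one arm of a hairpin would shift them. The reads of miR-322 were split almost evenly, with 50.5% on the 5p arm in NC-Exo (44.6 to 56.4%) and 53.1% in HC-Exo (48.2 to 58%). For miR-503, by contrast, 96.3% of the NC-Exo reads (92.8 to 98.4%) and 94% of the HC-Exo reads (90.7 to 96.4%) were on the 3p arm, not on the 5p arm that carries the seed bases in common with miR-322-5p. The 3p arm also had more reads in miR-542, 68% in NC-Exo (57.9 to 77%) and 61% in HC-Exo (53 to 68.6%). For miR-351, 87% of the NC-Exo reads (83.6 to 89.8%) and 92.7% of the HC-Exo reads (90.6 to 94.4%) were on the 5p arm.

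Among the 143 hairpins with both arms counted and at least 10 reads, 86 (60.1%) had more reads on the 3p arm. The arm with fewer reads held a median of 7.5% of a hairpin's reads over both libraries. For miR-322 it held 47.9%, which placed this hairpin 4th of the 143, and for miR-542 it held 36.3%. The hairpins of miR-351, with 9.55%, and miR-503, with 5.05%, were near the median.

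The strands of the miR-503 hairpin are shown because, of the 4 cluster hairpins with both arms counted, its arms had the highest ratio of levels, with the mature arms in capitals.
Mir503 hairpin: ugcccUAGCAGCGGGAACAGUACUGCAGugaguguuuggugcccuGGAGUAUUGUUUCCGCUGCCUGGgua
The hairpin is 71 nt long and spans chrX:137725856-137725926 on the minus strand (GRCr8). Counted from its 5′ end, miR-503-5p takes bases 6 to 28 and miR-503-3p bases 46 to 68.

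Arm shares were compared between the libraries by Fisher's exact test, with Benjamini-Hochberg adjustment over the 143 hairpins, and do not depend on how the libraries are scaled. The share of the 5p arm of miR-351 was higher in HC-Exo (adjusted p = 0.0388 from the two-sided Fisher's exact test). In log2 ratio, its 5p arm exceeded its 3p arm by 0.92 (0.35 to 1.50). This was 1 of 4 hairpins called among the 143 (2.80%). The other 3, named after their values were seen, were miR-126a, miR-423 and miR-28a. In each of those the 5p share was lower in HC-Exo, falling in miR-126a from 94.9% to 92%, in miR-423 from 91.5% to 85.2% and in miR-28a from 16.4% to 8.43%. Adjusted p-values from Fisher's exact test were 0.859 for miR-322, 0.739 for miR-503 and 0.713 for miR-542. The share of the 5p arm was higher in HC-Exo in 4 of 4 cluster hairpins and in 77 of all 143 (53.8%). Like the binomial test, Fisher's exact test compares the 2 libraries and holds no spread between cultures, and no arm test with an assumed spread was run.

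**Figure D4:**
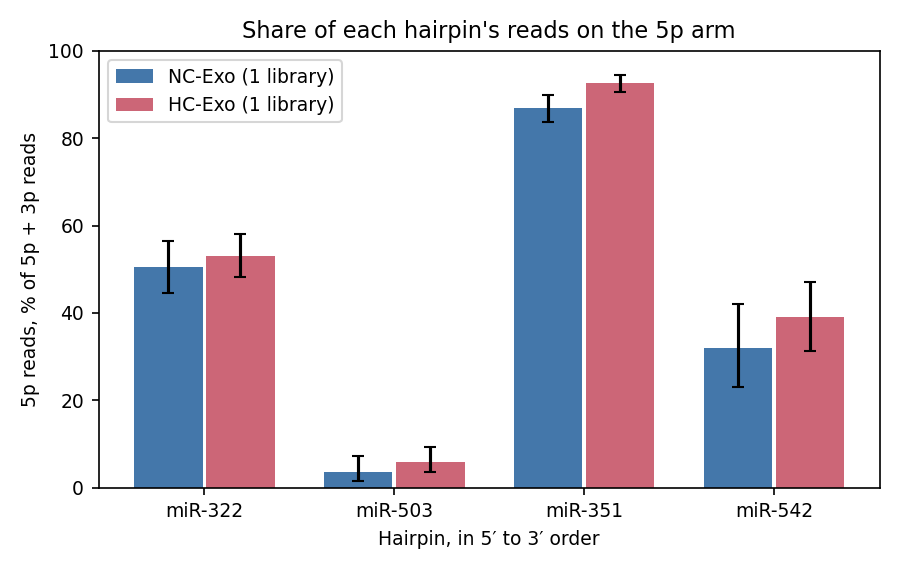
Share of a hairpin's reads on its 5p arm, in percent of 5p and 3p reads, in the NC-Exo and HC-Exo libraries (1 each) for the 4 cluster hairpins with both arms counted. Bars carry 95% Clopper-Pearson intervals of counting error, and miR-351 goes from 87% in NC-Exo to 92.7% in HC-Exo.

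The seeds that cluster members have in common with other miRNAs were then set beside each other. The 6 matched rows with the bases of miR-322-5p and miR-503-5p at positions 2 to 7 belong to the miR-15 and miR-16 family, known for holding back the cell cycle and, in the heart, for the exit of cardiomyocytes from division after birth. They took 283 NC-Exo reads, 0.276% of that library, and 533 HC-Exo reads, 0.4%. Their sum had a log2 ratio of 0.54 (0.33 to 0.75).

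The cluster supplied much of this family in both libraries. In NC-Exo, miR-322-5p held 51.2% of the family's reads (45.3 to 57.2%) and miR-16-5p 40.6% (34.9 to 46.6%). In HC-Exo the shares were 41.7% (37.4 to 46%) for miR-322-5p and 46.7% (42.4 to 51.1%) for miR-16-5p. The share of miR-503-5p was 2.83% (1.23 to 5.49%) and 3.38% (2.01 to 5.28%). Levels of miR-16-5p rose from 115 reads (1121 RPM) to 249 (1870 RPM), a log2 ratio of 0.74 (0.41 to 1.07, exact test adjusted p = 5.93e-05). The log2 ratio of miR-322-5p was smaller than that of miR-16-5p by an amount whose interval leaves out 0, with a difference of -0.50 (-0.96 to -0.04). Of the rest, miR-15b-5p had 7 and 24 reads, a log2 ratio of 1.40 (0.14 to 2.86, exact test adjusted p = 0.072). The row miR-497a-5p had 5 and 14 reads, and miR-195a-5p 3 and 6. A row named miR-15a-5p, not matched here to a sequence, had 0 NC-Exo reads and 8 HC-Exo reads. Its ratio had an exact 95% lower limit of 1.32.

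In the family of miR-351-5p the balance was the other way. The rows miR-125a-5p and miR-125b-5p, relatives of the worm miRNA lin-4, had far more reads than the cluster member. Of 4829 NC-Exo reads in the 3 rows, 72.2% were on miR-125a-5p, 19.1% on miR-125b-5p and 8.7% (7.92 to 9.53%) on miR-351-5p. Of 6588 HC-Exo reads, miR-351-5p had 10.7% (9.99 to 11.5%). For miR-125a-5p the log2 ratio was -0.01 (-0.08 to 0.05), and that of miR-351-5p was larger by 0.39 (0.20 to 0.58). Levels of miR-125b-5p were 8986 and 10439 RPM, a log2 ratio of 0.22 (0.10 to 0.34, exact test adjusted p = 0.00389). This call was lost under 3 of 5 other scalings, with a log2 ratio of 0.09 (-0.03 to 0.21) under upper-quartile scaling, and 2 of the 5 called miR-125a-5p lower. The log2 ratio of miR-351-5p differed from that of miR-125b-5p by 0.16 (-0.06 to 0.38). Summed over the 3 rows, the level was 47063 RPM in NC-Exo and 49476 RPM in HC-Exo, or 0.07 as log2 ratio (0.02 to 0.13). The direction of this sum depended on the scaling, at -0.05 (-0.11 to 0.00) with upper-quartile scaling.

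**Figure D5:**
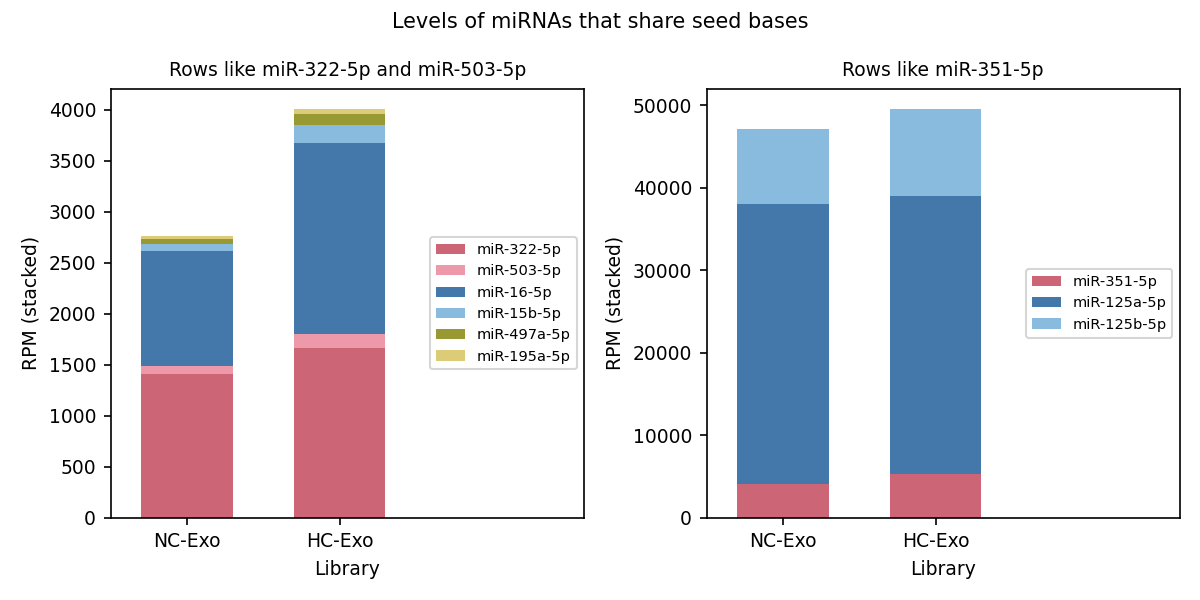
Stacked levels in RPM of the 6 miRNAs with the seed bases 2 to 7 of miR-322-5p and miR-503-5p (left) and of the 3 with the seed of miR-351-5p (right), in the NC-Exo and HC-Exo libraries (1 each). The cluster member miR-322-5p makes up 51.2% and 41.7% of the left stacks, and miR-351-5p 8.7% and 10.7% of the right ones.

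Marker miRNAs of heart muscle and of other cell types were counted beside the cluster. The 5 cardiomyocyte miRNAs (miR-1a-3p, miR-133a-3p, miR-208a-3p, miR-208b-3p and miR-499-5p) held 16.7% of the NC-Exo reads and 18.1% of the HC-Exo reads, with miR-1a-3p the most abundant. Of these, 3 of 5 were called higher in HC-Exo, beside 13.8% of all 340 tested and 28.1% of those with 100 or more reads, and 1 of 5 with upper-quartile scaling, beside 24 of the 340. The log2 ratio of miR-208b-3p was -0.16 (-0.70 to 0.37). The 5 mesenchymal or smooth muscle miRNAs (miR-143-3p, miR-145a-5p, miR-199a-3p, miR-199a-5p and miR-214-3p) held 3.83% and 3.91%, with miR-143-3p the most abundant, 3 of 5 called higher (2 of 5 with upper-quartile scaling) and miR-214-3p lower, beside 29 of the 340 called lower (38 with upper-quartile scaling). The endothelial miRNAs miR-126a-5p and miR-126a-3p held 9.11% and 6.68%, and the arms went opposite ways. The more abundant miR-126a-5p, with 8875 and 8185 reads, was called lower (log2 ratio -0.49), while miR-126a-3p, with 474 and 712 reads, was not called (log2 ratio 0.21, 0.04 to 0.38). The blood miRNAs held 0.698% and 0.756%, with miR-486a-5p the most abundant and miR-223-3p called higher, a call lost with upper-quartile scaling and with totals without the 10 most abundant miRNAs. Of the blood list miR-451a had 17 and 35 reads, miR-142a-3p had 2 in each library, and miR-144-3p had no row in the counts. The part of these cell types in the cluster's levels was not tested. In bulk RNA, a change in which cells release exosomes and a change in the miRNAs that each cell releases cannot be told apart.

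Another miRNA cluster, miR-17-92, known for promoting cell growth and the division of cardiomyocytes, was counted in the same way for comparison. Its 6 rows (miR-17-5p, miR-18a-5p, miR-19a-3p, miR-19b-3p, miR-20a-5p and miR-92a-3p) held 2.26% of the NC-Exo reads and 2.87% of the HC-Exo reads. The exact binomial test called 4 of the 6 higher in HC-Exo and 0 lower, beside 13.8% higher of all 340 tested and 28.1% of those with 100 or more reads. With upper-quartile scaling 2 of the 6 were called higher, beside 24 of the 340. The median log2 ratio was 0.45, beside 0.24 for the 9 tested members here. As a sum, the rows had a log2 ratio of 0.35 (0.27 to 0.42), beside 0.25 (0.14 to 0.36). Whether the clusters differ from each other was not tested.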

How the data were processed

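Small RNA of NC-Exo and HC-Exo was sequenced with an Illumina kit, 1 library each. The authors deposited whole read counts per mature miRNA without normalization, and every test used these counts. They also deposited normalized values, a signal in which each NC-Exo read stands for 12.1 and each HC-Exo read for 9.23, used as an alternative scaling. The submitters' processing notes name Bowtie2 and the mouse builds mm9 and GRCm38, without roles or a version. How reads that fit several miRNAs were assigned is not given in the sources used here. Some rows had identical counts, and whether shared reads were counted in full in each row or divided evenly cannot be told from the counts. The authors' comparison table, with fold changes, p-values and q-values, was not used.

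RPM were computed from the library totals. The two-sided exact binomial test of the HC-Exo reads, given the sum over both libraries, was run on the 340 miRNAs with at least 10 reads, and Fisher's exact test on the arms of 143 hairpins, each with Benjamini-Hochberg adjustment. Intervals are 95% Clopper-Pearson. Other scalings were TMM and upper quartile (edgeR 4.0.16), size factors (DESeq2 1.42.0), totals without the 10 most abundant miRNAs, and the deposited normalized signal. Pseudocounts, other filters, and exact tests of edgeR with an assumed coefficient of variation were also tried. R 4.3.3, Python 3.11.15, scipy 1.17.1, numpy 2.4.6, pandas 2.3.3 and matplotlib 3.10.9 were used, and the binomial and Fisher's tests were tested on simulated data.

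Named miRNAs were the members, matched rows with the same seed (bases 2 to 8) as a member, the marker and comparison lists, the table neighbours of the members, and the 3 with the ratio closest to miR-351-5p. The miRNAs miR-15a-5p, miR-155-5p, miR-486b-5p, miR-423 and miR-28a were named beyond this rule, after their values were seen. Members and lists were chosen with earlier results of these data known. RefSeq names matched 315 of 635 rows, 3 of them through a changed name.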

Additional observations from a re-analysis of the deposited data

How the results depend on the processing

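Each scaling moves all log2 ratios by one constant, and 46 of 50 member ratios kept their sign under the 5 scalings. With upper-quartile scaling miR-322-3p was at -0.03 and miR-503-3p at -0.05, and with totals without the 10 most abundant miRNAs at -0.01 and -0.03. Under all 5 scalings miR-351-5p kept its call (log2 ratio 0.25 to 0.36, adjusted p 4.95e-04 to 0.0293, exact binomial test). The number of members called fell to 1 with TMM, upper-quartile, DESeq2 and top-10-free scaling, and to 1 with no filter on reads, where more miRNAs were tested. The lost call was miR-450b-3p, with log2 ratios of 0.48, 0.42, 0.52 and 0.45 under those scalings and an adjusted p of 0.0695 with no filter, exact binomial test. The cause was not tested. Over all tested miRNAs, calls higher in HC-Exo fell from 47 to 24 (upper quartile) and 29 (top-10-free).

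The exact test of edgeR, run at coefficients of variation of 0.1, 0.2 and 0.4, called 0 miRNAs and 0 members, with or without the limit on size. At an unadjusted p under 0.05 it counted 55, 20 and 1 miRNAs, and 0 members each time. With no filter 279 miRNAs and 1 member (miR-450a-1-3p) passed a log2 ratio of 1 in size, and 350 had a log2 ratio above 0. With at least 50 reads these counts were 7 and 113, and 7 passed size and adjusted p. With at least 100 reads, chosen after seeing the data, they were 1, 81 and 1. Fewer miRNAs are tested under these filters. Further alternatives were added after seeing the data. With rows of identical counts and 100 or more reads counted once, 74 of 336 miRNAs and 2 members were called. The summed rows of the miR-351-5p seed had a log2 ratio of -0.05 with upper-quartile and -0.02 with top-10-free scaling.

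The cluster's share of NC-Exo reads was 2.65% and of HC-Exo reads 2.94% without the 10 most abundant miRNAs, and 1.35% and 1.63% without miR-1a-3p, since the denominator is smaller. For arms, 19 hairpins had an unadjusted p under 0.05 in Fisher's exact test, a count added after seeing the data. With at least 50 reads per hairpin 4 were called, and miR-351 had adjusted p = 0.0271 in Fisher's exact test. The authors' normalized values are counts times a constant per library, so the order of levels within a library had no way to change.

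No paired analysis was possible because each condition had 1 library, and there was no replicate to leave out. The quasi-likelihood test of edgeR and the test of DESeq2 need replicates and were not run. Depth limits miR-503-5p (26 reads) and miR-450a-1-3p (9 reads) most. A pseudocount, a number of reads added to both counts, moved their ratios accordingly. With a pseudocount of 5 the log2 ratio of miR-450a-1-3p went from 2.62 to 0.74 and that of miR-503-5p from 0.79 to 0.45. With a pseudocount of 0.5 they were 2.13 and 0.75. All 20 member ratios kept their sign under the pseudocounts.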

Other observations

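The rows of the count table are in alphabetical order of name, with 1 of 634 neighbouring pairs out of order. The row out of place is named miR-155. It is number 393 in the table, after the cluster member miR-450a-1-3p (392) and before miR-450b-3p (394), and it held 6 NC-Exo reads and 29 HC-Exo reads. A separate row named miR-155-5p stood in its alphabetical place, with 11 NC-Exo reads and 8 HC-Exo reads, a log2 ratio of -0.84. The name miR-450a-5p would sort to the place of the displaced row. Whether the row is named rightly was not tested with these counts. The study reports that its qRT-PCR of miR-155 in the exosomes gave essentially the same result as sequencing. It lists miR-155 as upregulated in HC-Exo. The fold change listed there equals the log2 ratio of the displaced row, 1.90, and not that of the miR-155-5p row. The qRT-PCR values are not analysed here. The row was taken by its name and not counted among the members, so its reads are in neither the Mir450a1 sum nor the cluster sum.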
